A study of Rattus norvegicus with 4 samples.

Results

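The insulin, insulin-like growth factor (IGF) and growth hormone system was represented by 31 of the 1185 spots of a nylon cDNA array. They are the spots whose gene name holds insulin, growth hormone, IGF, somatostatin, prolactin or glucagon, together with the growth hormone receptor and a protein tyrosine phosphatase named PTPase. Each spot carries cDNA of one gene, and its brightness after hybridization with radiolabelled cDNA reflects the amount of that mRNA. The tissue was mesenteric white adipose tissue, the fat around the gut, of female Wistar rats that weighed 220 to 230 g initially, and their age is not given in the sources used here. The 2 OE-treated rats (OE) had received oleoyl-estrone, the oleic acid ester of estrone, through a stomach cannula, daily for 2 days, at a dose of 10 μmol/kg dissolved in 0.2 ml sunflower oil. The 2 control rats received the oil alone. Tissue was taken at 48 h, and 5 μg of total RNA of each rat was hybridized to its own array, here called control 1, control 2, OE 1 and OE 2. Where 4 values of a spot follow each other without further words, they stand in that order.

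Insulin and IGF-I act through related receptor tyrosine kinases, whose signal runs through phosphatidylinositol 3-kinase and AKT to glucose uptake and lipid synthesis, and through RAS, RAF and the ERK kinases to growth. Tyrosine phosphatases remove the phosphates that these receptors write. Growth hormone binds its own receptor, which signals through the kinase JAK2 and STAT factors, induces IGF-I in liver and fat, and favours lipolysis in adipocytes. IGFs travel bound to IGF-binding proteins (IGFBPs), which decide how much hormone reaches the receptors: IGFBP-3 carries most of the circulating IGF together with the acid-labile subunit, and IGFBP-1 is repressed by insulin and induced by fasting.

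The background-adjusted intensity, in arbitrary units, is the spot intensity minus the background, and it was taken as detected at 2 times the background or more, a limit of 120 and 108 on the controls and of 122 on both OE arrays. Of the 31 spots, control 1 detected 7, control 2 detected 8, OE 1 detected 10 and OE 2 detected 7. Of all 1185 spots, the arrays detected 152, 178, 246 and 176 in the same order. In the system 5 were detected on all 4 arrays (IGFBP-3, IGFBP-5, the incretin hormone GIP, ERK1 and the aminopeptidase vp165). Another 5 were detected on 1 to 3 arrays and 21 on none. Over the whole array 100 spots were detected on all 4 arrays and 285 on at least 1. For comparison between arrays each value was divided by the median of its array, and the result is given as array medians. Levels of different spots cannot be set against each other as amounts of mRNA, since each spot has its own cDNA. Sums over spots are weighted by the brightest ones and serve only to compare arrays.

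Control 2 stood apart in its cell type markers. The 6 adipocyte markers summed to 266 and 2251 array medians on the controls and to 438 and 529 on the OE arrays. The fatty acid-binding protein FABP4 carried most of each sum (252, 2115, 400.5 and 501), and the other 5 markers summed to 13.4, 136, 38.0 and 28.2. Control 2 was the highest array for 5 of the 6, by little for CD36 (12.7 against 12.3 on OE 1). Of these markers, 4 were detected on at least 1 array, and leptin, a defining one, was at or near 0 (4, 0, 11 and 2). The 8 leukocyte markers went the opposite way, with sums of 252, 24.0, 277 and 139 array medians in the same order. The leukocyte antigen CD45 carried the largest share (146, 7.89, 145 and 77.6), and the other 7 summed to 106, 16.1, 132 and 61.4. Control 2 was the lowest array for 7 of the 8, by little for the receptor c-fms (5.11 against 7.14 on control 1), while CD4 was lowest on OE 2 (6.41 against 8.00 on control 2). CD3 zeta and CD8 were at 0 on control 2. Of 3 intestinal markers, 2 were detected, and on OE 2 alone. There intestinal fatty acid-binding protein reached 1690 and apolipoprotein A-IV 1433, against at most 22 on the other arrays. Sucrase isomaltase (0, 2, 2 and 14) was detected on no array. None of 5 pancreatic, 3 pituitary and 1 liver markers was detected on any array. In bulk tissue, fewer cells of a type and less RNA per cell cannot be told apart. Since control 2 is 1 of 2 controls, ratios against control 1 alone are also given below. The part of cell composition in these ratios was not tested.

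**Figure D1:**
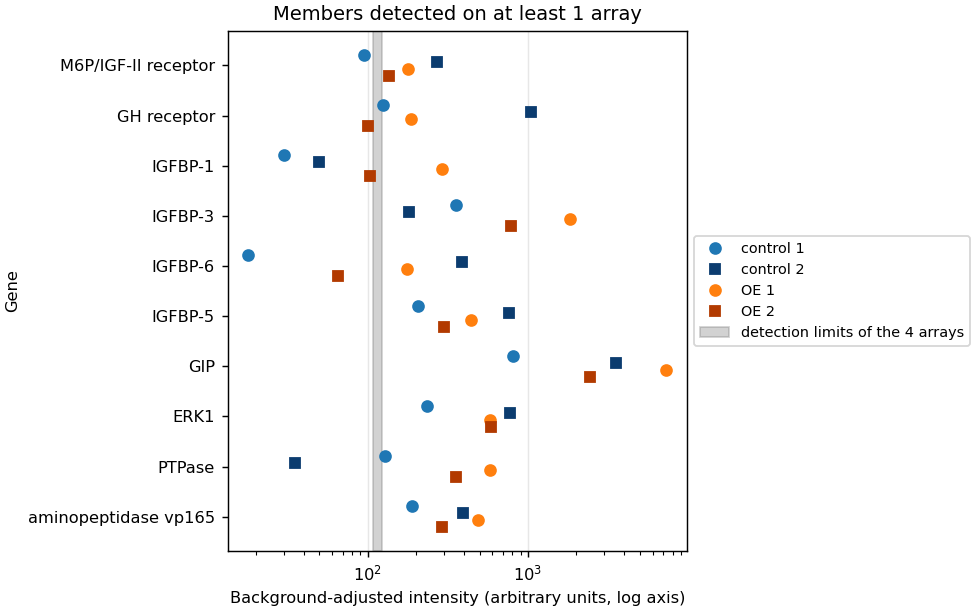
Background-adjusted intensity (log axis) of the 10 spots detected on at least 1 array, with 1 point per rat, and the grey band spanning the detection limits of 108 to 122. The growth hormone receptor reaches 1049 on control 2 and 101 to 186 elsewhere, whereas the IGFBP-3 values of both OE arrays (1826 and 785) lie above those of the controls (354 and 180).

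Among the IGF-binding proteins, IGFBP-3 was the one detected on all arrays with groups that did not overlap. The promoters of the neighbouring genes of IGFBP-1 and IGFBP-3 are shown because both spots were brighter on both OE arrays and the genes lie side by side on rat chromosome 14. The pair was thus picked by its values, and IGFBP-1 exceeded the detection limit on OE 1 alone. The genes of IGFBP-2 and IGFBP-5 also lie side by side, on chromosome 9, and are not shown. The windows hold the 250 bases before each start site (RefSeq, GRCr8), Igfbp1 at chr14:86261027-86261276 on the plus strand and Igfbp3 at chr14:86277945-86278194 on the minus strand. Capitals mark the letters CAAAACA, the core of the insulin response element by which insulin represses Igfbp1, searched on both strands (TGTTTTG on the other).
Igfbp1: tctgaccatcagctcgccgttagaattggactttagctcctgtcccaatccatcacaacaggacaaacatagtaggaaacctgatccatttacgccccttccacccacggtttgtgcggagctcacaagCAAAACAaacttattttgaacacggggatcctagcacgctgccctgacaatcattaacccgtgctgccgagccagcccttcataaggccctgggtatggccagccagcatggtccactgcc
Igfbp3: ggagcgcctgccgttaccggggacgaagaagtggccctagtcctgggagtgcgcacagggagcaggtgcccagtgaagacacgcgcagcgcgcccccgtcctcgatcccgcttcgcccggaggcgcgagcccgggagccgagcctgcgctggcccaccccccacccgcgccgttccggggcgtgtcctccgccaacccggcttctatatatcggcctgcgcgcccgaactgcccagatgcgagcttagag
The letters occurred 1 time in the Igfbp1 window, from 121 to 115 bases before the start, and 0 times in the Igfbp3 window. They were present in 5.46% of the 33469 rat promoter windows of this length. Among the 24 spots of the system with a promoter entry, of 27 that matched a rat gene symbol, the windows of Igf1 and Igfbp1 held them. A match is a description of the letters, not evidence of a bound factor.

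IGFBP-3, the main carrier of IGFs in blood, had adjusted intensities of 354 and 180 on the controls against 1826 and 785 on the OE arrays. These were 25.3, 20.0, 83.0 and 46.2 array medians, so that the controls were close to each other and both OE arrays lay above them. The control mean of 22.6 ± 3.74 array medians and the OE mean of 64.6 ± 26.0 (each SD, n = 2) gave a ratio of 2.85. On the log2 scale the difference was 1.46 ± 0.64 (SE), with an adjusted p of 0.957 in limma over 922 genes. The ratio was 3.23 against control 2 alone and 2.55 against control 1 alone. Without OE 1 it was 2.04 and without OE 2 it was 3.67.

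IGFBP-1, the binding protein that insulin represses, had adjusted intensities of 30, 50, 293 and 103. The groups did not overlap in array medians either (2.14, 5.56, 13.3 and 6.06), but only OE 1 exceeded the detection limit. No fold is given, since its geometric OE mean was 0.874 times the bound for the controls, the lowest signal detected on each control array. On the array its spot lies next to that of IGFBP-3, whose intensities ran in the same order over the OE arrays, and the part of the neighbouring signal was not tested. Endothelin-1, the spot on the other side of IGFBP-3, read 5, 24, 29 and 15.

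IGFBP-5, which binds to the extracellular matrix of connective tissues, had adjusted intensities of 205, 764, 444 and 301. In array medians it was 14.6, 84.9, 20.2 and 17.7, so that a single control array was high and the other 3 were alike. Its ratio of 0.381 became 1.29 against control 1 alone, on the other side of 1. IGFBP-6, a binding protein with preference for IGF-II, read 18, 388, 176 and 65, or 1.29, 43.1, 8.00 and 3.82 array medians. It was detected on control 2 and OE 1. The ratio of 0.266 rests on control 2. No fold is given against control 1 alone, where the spot was below the limit and the geometric OE mean was 0.635 times the bound, the lowest signal detected on that array. The high values of IGFBP-5 and IGFBP-6 coincided with the high adipocyte marker sum of control 2. Their spots lie next to each other on the array and their intensities ran in the same order over the arrays. The part of the neighbouring signal was not tested.

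IGFBP-2 and the acid-labile subunit, the partner of IGFBP-3 in the large circulating complex, were not well above background on any array. IGFBP-2 read 7, 22, 9 and 3, and the acid-labile subunit 16, 0, 29 and 20. Neither is given a fold.

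**Figure D2:**
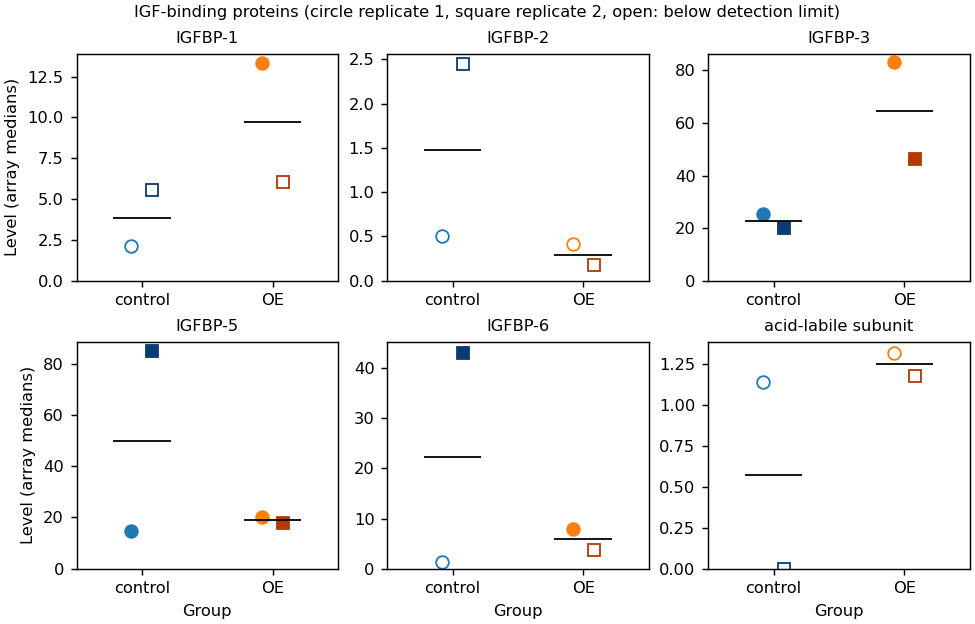
Level of each IGF-binding protein and of the acid-labile subunit in array medians (linear axes from 0, different scales), with 1 symbol per rat, circles for replicate 1, squares for replicate 2, open symbols for values below the detection limit and bars for the group mean (n = 2). IGFBP-3 is detected on all 4 arrays with both OE values (83.0 and 46.2) above both controls (25.3 and 20.0), whereas IGFBP-5 and IGFBP-6 are high on control 2 alone.

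Of the receptors, the growth hormone receptor had adjusted intensities of 124 and 1049 on the controls and of 186 and 101 on the OE arrays. In array medians these were 8.86, 117, 8.45 and 5.94. Control 1 thus stood close to the OE arrays and 1 control array carried the difference. The ratio of means was 0.115, and with geometric means it was 0.221. The log2 difference, which goes with the geometric means, was -2.18 ± 1.32 (SE), with an adjusted p of 0.957 in limma. Against control 1 alone the ratio was 0.813 and against control 2 alone 0.062. OE 2 lay below the detection limit, so that 1 of the 2 OE arrays measured it.

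The genes whose levels were most like those of the growth hormone receptor over the 4 arrays were, among the 284 other genes detected on at least 1 array, mast cell protease-3 (Pearson r = 0.999), aldolase A (0.997), cathepsin L (0.996), liver carboxylesterase 10 (0.996) and steryl-sulfatase (0.996). With n = 4 arrays, 1 of them far above the others, these correlations describe a shared high value on control 2 and carry no test. The pattern was common, since 160 of the 285 genes detected on at least 1 array (56.1%) were highest there in array medians. Control 2 also had the smallest divisor, a median of 9 against 14, 22 and 17, and its part in this count was not tested. Among the 10 detected spots of the system 7 were highest on control 2 and the other 3 (IGFBP-1, IGFBP-3 and PTPase) on OE 1.

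The receptor for mannose 6-phosphate and IGF-II, which takes up IGF-II and lysosomal enzymes for degradation, read 95, 271, 178 and 136. In array medians it was 6.79, 30.1, 8.09 and 8.00, again with 1 high control array. Its ratio was 0.436. No fold is given against control 1 alone, which was below the detection limit, with a geometric OE mean of 0.923 times the bound there.

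The insulin receptor was represented by a pair of spots, neither well above background on any array. The first (M29014) read 37, 40, 33 and 15, and after scaling both OE arrays were lower than either control. The second (X58375) read 16, 18, 28 and 10, with overlapping groups. The IGF-I receptor read 34, 27, 70 and 39, and the insulin receptor-related receptor, a kinase of the same family, read 19, 25, 84 and 42. At these intensities no difference in the mRNA of the insulin or IGF-I receptors was detectable.

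The ligands themselves were equally dim. IGF-I, which fat makes in response to growth hormone, read 38, 90, 88 and 59, and IGF-II, abundant in fetal tissue, read 12, 16, 13 and 13. No value of either reached the detection limit.

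Among the enzymes, PTPase differed in the same direction as IGFBP-3. The files name it protein tyrosine phosphatase (M33962) without its type. It read 129, 35, 577 and 356. In array medians these were 9.21, 3.89, 26.2 and 20.9, and both OE values lay above both controls, of which only control 1 was detected. The control mean of 6.55 ± 3.77 array medians and the OE mean of 23.6 ± 3.74 (each SD, n = 2) gave a ratio of 3.60. The log2 difference was 1.97 ± 0.70 (SE), the largest upward difference of the system, with an unadjusted p of 0.037 and an adjusted p of 0.957 in limma. The ratio was 2.56 against control 1 alone. Against control 2 alone, where the spot was below the limit, the OE level was at least 1.94-fold higher. The low value on control 2 coincided with the low leukocyte marker sum there. On control 1, OE 1 and OE 2 that sum was 252, 277 and 139 array medians, against 9.21, 26.2 and 20.9 for PTPase. The part of leukocytes in the PTPase signal was not tested.

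ERK1, the mitogen-activated kinase downstream of these receptors, read 235, 777, 583 and 591, and its ratio of 0.594 became 1.82 against control 1 alone. The aminopeptidase vp165, which travels with the glucose transporter GLUT4 to the surface of adipocytes under insulin, read 188, 392, 488 and 289. Its ratio was 0.688 with both controls and 1.46 against control 1 alone. Both enzymes were detected on every array and their groups overlapped.

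**Figure D3:**
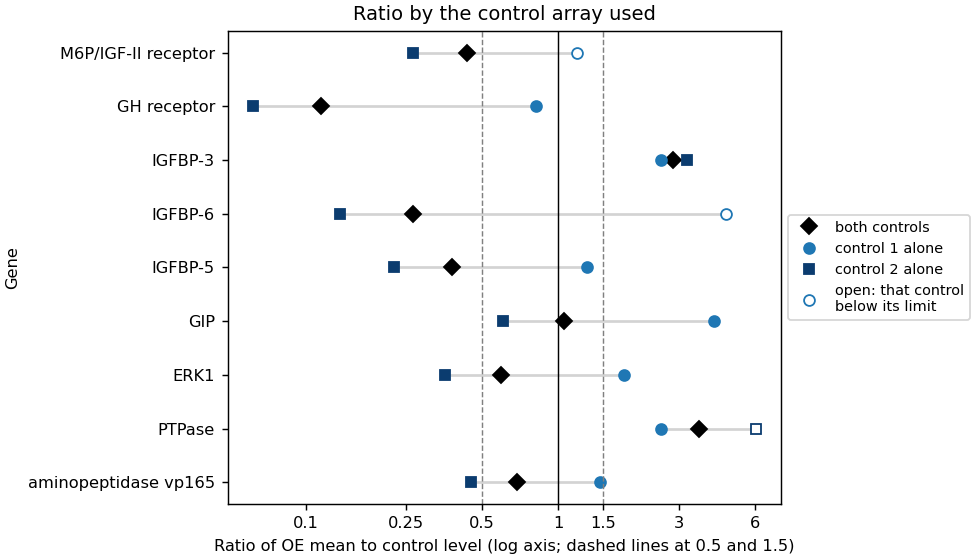
Ratio of the OE mean to the control level (log axis) for the 9 spots detected on at least 1 array of each group, computed with both controls (diamonds), with control 1 alone (circles) and with control 2 alone (squares), open where that control was below its limit and the plotted ratio is not a measured fold, with dashed lines at 0.5 and 1.5. IGFBP-3 (2.55 to 3.23) and PTPase (2.56 against control 1) lie over 1.5 and the growth hormone receptor under 1 (0.062 to 0.813) with either control, while the filled symbols of IGFBP-5, GIP, ERK1 and vp165 fall on both sides of 1.

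Of 5 hormones of gut, islet, hypothalamus, pituitary and placenta, only GIP, the incretin of the upper intestine that raises insulin secretion and promotes fat storage, was detected. Its spot read 805, 3542, 7307 and 2426, or 57.5, 394, 332 and 143 array medians. It was thus bright on all 4 arrays with overlapping groups, and its ratio of 1.05 became 4.13 against control 1 alone. In array medians GIP was thus highest on control 2 (394), with 143 on OE 2. Intestinal markers were detected on OE 2 alone, where the brightest read 1690, against at most 22 elsewhere. The part of intestinal tissue in the GIP signal was not tested. Whether the GIP spot measured GIP mRNA in this tissue was not tested. Somatostatin, growth hormone-releasing hormone, prolactin and prolactin-like protein A did not exceed 13 on any array. The 9 receptors for such hormones (5 somatostatin receptors and those of glucagon, GLP-1, GIP and growth hormone secretagogues) did not exceed 61, and all stayed below the detection limit.

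For a count over the system, spots entered when they lay above a floor of 0.235 array medians, to which lower values were raised, on both arrays of at least 1 group, as 24 of the 31 did. A ratio under 0.5 was found for 6 of them, against 18.3% of the 922 genes of the array that entered, and a ratio over 1.5 for 7, against 18.9%. The groups did not overlap for 9, with OE the lower group in 4 (15.8% of all genes) and the higher in 5 (14.1%). Since 14 of the 24 were detected on no array, the 10 detected spots were counted separately, and 4 lay under 0.5 (20% of all detected genes) and 3 over 1.5 (13.3%). The median ratio of the 24 was 0.929, close to the 0.895 of all genes. Tested with limma, 0 spots of the system and 0% of all genes passed an adjusted p of 0.05, with adjusted p-values from 0.957 to 1.000. At an unadjusted p under 0.05 there was 1 (PTPase), against 2.06% of all genes.

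The counts turned with the control used. Against control 1 alone, 1 spot was under 0.5 (8.79% of all genes) and 8 were over 1.5 (32.4%), with a median of 1.21. Against control 2 alone, 11 were under 0.5 (28.7%) and 10 over 1.5 (29.2%), with a median of 0.758. The median of all genes moved in the same way, to 1.11 and 0.822. With 2 arrays per group, an exact permutation test cannot give a p under 0.05, and none was run on single genes.

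**Figure D4:**
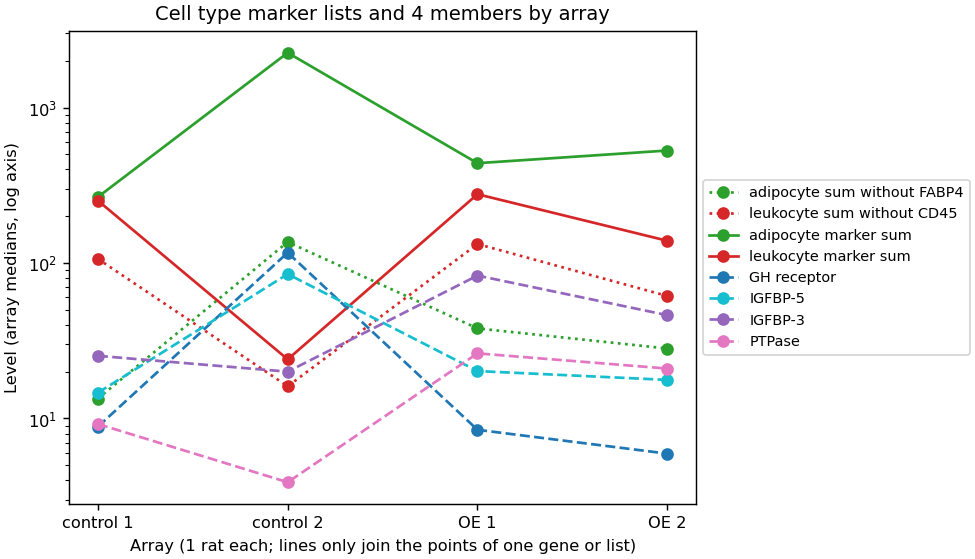
Summed level of the 6 adipocyte and the 8 leukocyte markers (solid lines; dotted without FABP4 or CD45) and the level of 4 spots of the system (dashed lines) in array medians (log axis) on each of the 4 arrays, 1 rat each. The growth hormone receptor (117) and IGFBP-5 (84.9) peak on control 2 with the adipocyte sum (2251), where PTPase (3.89) is lowest with the leukocyte sum (24.0), while IGFBP-3 is nearly level between the controls (25.3 and 20.0).

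Further genes of the pathways, from lists chosen by function, showed no difference that passed the adjusted test. Of 13 genes from GRB2 to the ERK kinases, 12 entered. Of these, 1 lay under a ratio of 0.5 (18.3% of all genes) and 0 over 1.5 (18.9%). Their median was 0.849, against 0.895 for all genes. The low one was AKT2, the insulin-responsive protein kinase B of fat and muscle, which was detected on all 4 arrays. It read 217, 255, 197 and 127, with both OE values below both controls in array medians and a ratio of 0.375. Its unadjusted p was 0.086 in limma. The ratio was 0.530 against control 1 alone. ERK2 (250, 289, 646 and 366) and A-raf (253, 217, 418 and 194) were detected on all 4 arrays as well, with ratios of 1.02 and 0.721.

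Of 4 genes of the JAK and STAT families, all entered, and 1 had a ratio over 1.5 (18.9% of all genes). It was JAK3, named after its values were seen, a kinase of lymphoid cells, which read 99, 0, 194 and 135, with the OE arrays alone over the limit. No fold is given for it, since its geometric OE mean was 0.815 times the bound for the controls, and against control 1 alone it lay under 1.5. JAK2, the kinase that binds the growth hormone receptor, was not detected. STAT3 read 316, 211, 434 and 227, with a ratio of 0.719.

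Of 6 genes that insulin is known to regulate in fat, 5 entered and all 5 had a ratio under 0.5 (18.3% of all genes), with a median of 0.327. Of the 6 genes, 4 were detected on at least 1 array. Against control 1 alone, 1 of the 5 stayed under 0.5 (8.79% of all genes), 2 were over 1.5 (32.4%) and the median was 0.750. Control 1 detected 0 of the 6 genes, so that the ratios against it are no measured folds. Fatty acid synthase and lipoprotein lipase were named after their values were seen. Fatty acid synthase, the enzyme of fatty acid synthesis that insulin induces, read 60, 182, 39 and 15, detected on control 2 alone. Both OE values were below the limit, and taken against the lowest signal detected on each OE array the control level was at least 3.18-fold higher with control 2 alone. Control 1 was itself below its limit and allows no fold. The unadjusted p was 0.030 in limma (adjusted 0.957). Lipoprotein lipase, which releases fatty acids from circulating triglyceride, read 115, 746, 342 and 242, and its ratio was 0.327. Against control 1 alone, which was just below the limit, the OE level was at least 1.71-fold higher. Lipoprotein lipase, hormone-sensitive lipase and leptin are also among the 6 adipocyte markers.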

How the data were processed

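RNA of mesenteric white adipose tissue of 2 control and 2 OE-treated rats was measured, 1 rat per array, on a nylon array of 1185 spots. The authors deposited intensity values as written by the image analysis software, with the spot, background and adjusted intensity of each spot and no scaling between arrays. Another array's 12 columns in these files were not used, nor was the series table, whose row names matched no spot code. The image analysis and the normalization in GeneSpring 6.1 are described in the methods, and the control strength filter was not repeated here.

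Arrays were scaled to their 50th percentile. A floor of 0.235 array medians, the 10th percentile of all positive values after scaling, replaced lower values, and 922 genes above it on both arrays of either group entered. The ratio is the OE mean over the control mean, with cutoffs of 0.5 and 1.5. The log2 levels were fitted by group in limma 3.58.1 (lmFit and eBayes, R 4.3.3) and p-values adjusted by Benjamini-Hochberg over all 922 genes, after the script had been tested on simulated data. Detection was set at 2 times the background. The number of arrays limits the precision. The labels number the samples and the methods give 2 animals per condition, taken here as 1 rat per array. The p-values measure the spread between these arrays, in which rat and hybridization cannot be told apart.

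The members, the lists (cell type markers, the kinase cascade, JAK and STAT, insulin-regulated genes) and the tests were chosen with earlier results of these data known. Members detected on any array and members past a cutoff without overlap were named and followed through the alternatives, and others were named as single examples of a role, without alternatives. Genes of the further lists were to be named where detected on all 4 arrays. JAK3, fatty acid synthase and lipoprotein lipase fall outside that rule. Gene names and GenBank numbers are those of the array files, and promoters came from RefSeq (GRCr8), matched by symbol. Alternatives were other scalings, floors, filters and background corrections, geometric means, leaving out each array, a replicate block and an intensity trend.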

Additional observations from a re-analysis of the deposited data

How the results depend on the processing

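The count of spots under a ratio of 0.5, 6 in the report, was 2 without scaling between arrays, 1 without background subtraction, 1 with normexp and an offset of 50, and 3 with geometric means, and it ran from 1 to 11 when each array was left out in turn, 1 without control 2 and 11 without control 1. The count over 1.5, 7 in the report, was 12 without scaling, 4 without background subtraction, 4 with normexp, 4 with the floor at the 25th percentile and 3 among spots detected on at least 1 array, and it ran from 6 to 10 when an array was left out. Over the arrays left out in turn, the ratio ran from 0.267 to 1.19 for the M6P/IGF-II receptor, from 0.137 to 4.60 for IGFBP-6 and from 0.223 to 1.29 for IGFBP-5, each time lowest without control 1 and turned without control 2. Control 1 was below the detection limit for the M6P/IGF-II receptor and IGFBP-6, so that their turned values are no measured folds. Over all alternatives, the ratio of IGFBP-3 ran from 2.04 without OE 1 to 4.89 without scaling. That of PTPase ran from 2.56 without control 2 to 6.06 without control 1, which sets OE against control 2, below the limit there. The median log2 ratio of all genes was -0.16 here and 0.63 without scaling. Relative to the median of all genes, over 6 scalings, IGFBP-3 ran from 2.96 to 3.19, PTPase from 3.55 to 4.05 and the growth hormone receptor from 0.128 to 0.166.

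limma gave 0 spots at an adjusted p under 0.05 under all 18 alternatives with a test, including the replicate block (0), and 0 to 11 at an unadjusted p. The lowest adjusted p of the system was 0.188, without control 1, where the single control is assumed to vary like the other group. The labels do not say whether same-numbered rats were paired. The correlation of the deviations of same-numbered arrays was 0.0495, which cannot settle a pairing with 2 arrays per group. The series table was not run as an alternative. Depth of signal limits 21 of the 31 spots, which were below 2 times the background everywhere.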
